A study of Mus musculus with 6 samples.

Results

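The STAT transcription factors and the Janus kinases were followed in total RNA of a pair of mouse hybridomas, hybrid lines in which a lymphocyte has been joined to a tumour cell. These 9 genes, of 19057 with an annotated symbol, had 22 of the 45281 probes of an Illumina bead array. The probes were chosen as all those annotated to Stat2, Stat3, Stat4, Stat5a, Stat5b, Stat6, Jak1, Jak2 or Jak3. One line, S2, produced IL-17 (3 arrays), and the other, DE3, did not (3 arrays). Both were grown in RPMI medium with fetal calf serum, and the labels give no treatment, strain, fusion partner or lymphocyte type. Each group was a single line, so the comparison was between 2 hybridomas, and nothing states that replicates came from different cultures. The p-values therefore reflect the spread among these arrays alone, possibly a technical one.

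Cytokine receptors without a kinase of their own carry Janus kinases on their intracellular tails. Ligand binding lets the kinases phosphorylate each other and the receptor, STAT proteins dock there, are phosphorylated, pair up and enter the nucleus to bind DNA. In T cells STAT3 acts downstream of IL-6, IL-21 and IL-23 and is needed for IL-17 production, while STAT4 serves IL-12, STAT5 serves IL-2 and related cytokines, STAT6 serves IL-4 and STAT2 serves type I interferon. These proteins are switched on by phosphorylation, which an RNA array does not measure.

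Mean raw signal was 399 to 482 on the producing and 505 to 559 on the non-producing arrays, and 36.9% to 39.4% of probes were above background. The arrays shared 1 chip, where each line occupied adjacent positions, so position and group cannot be told apart. Of 11 T cell markers with a probe, 7 were above background on all 6 arrays (among them Cd3d, Cd3e and Cd3g, chains of the T cell receptor complex), and Cd5 and Cd8a were on none. Their summed normalized signal, on the linear scale, was 41447 to 43205 for S2, the producer, and 50283 to 53335 for DE3. The markers did not move together. Cd3d (-0.996), Cd3g (-0.67) and Thy1 (-0.47) fell, Zap70 (0.30) and Cd247 (0.54) rose, and Cd3e (-0.04), Lat (-0.06) and Cd4 (0.09) did not pass, as log2 differences of producing minus non-producing. The other tested probes of Cd247 were at -0.25 and 0.06 and did not pass. Of 8 B cell markers 2 were above background on all arrays and 5 on none (summed signal 320 to 338 against 332 to 395). The detected pair went opposite ways, with Vpreb1 at 0.51 and Pou2af1 at -0.78, both past the test. Of 10 myeloid markers 0 were above background on all arrays and 8 on none (233 to 252 against 258 to 275). The part of these marker differences in the results below was not tested. In bulk RNA, fewer cells that express a gene and less RNA per cell cannot be told apart.

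Jak2, Stat3 and Stat4 rose in the producing line, and no STAT or JAK gene fell. The log2 difference, producing minus non-producing, was 0.61 for Jak2 (1.52-fold), 0.31 for Stat3 (1.24-fold) and 0.33 for Stat4 (1.26-fold), each read from the gene's brightest tested probe. This order turned when each chromosome's median difference was removed, with Jak2 at 0.30, Stat3 at 0.33 and Stat4 at 0.38. Stat2, Stat5a, Stat6, Jak1 and Jak3 did not pass, and Stat5b could not be tested because its probe was not above background. Thus 3 of the 8 tested genes (37.5%) passed a Benjamini-Hochberg adjusted p of 0.05 in limma, where 36.7% of the 9395 genes tested on the array passed. All 3 were higher, as were 18.1% of all tested genes, and 18.6% were lower. No STAT or JAK gene reached a 2-fold difference, which 3.63% of tested genes did. The share of these genes that passed was therefore near that of the array. Their median difference was 0.21 against 0.00 for all tested genes, and their median size of difference was 0.21 against 0.21.

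These directions are relative to the other genes on each array, because quantile normalization gives all arrays the same distribution of values. Mean raw signal was lower on the producing arrays, as given above. Median raw signal was 63 to 67.6 on the producing and 67.6 to 67.9 on the non-producing arrays. When arrays were scaled to a common median over all probes in place of quantile normalization, 0 of the 8 genes were higher and 1, Stat5a, was lower. That scaling moved the median difference of all tested probes to -0.22 and the calls over all tested genes from 1703 higher and 1745 lower to 473 higher and 3308 lower. Relative to that shifted median, Jak2 stood at 0.53, Stat4 at 0.28, Stat3 at 0.25, Jak1 at 0.21 and Stat5a at -0.15. As 36.9% to 39.4% of probes were above background on an array, the median over all probes lay among probes that were not. With the median taken over the tested probes alone, an alternative chosen after seeing the data, the same 3 calls were made, all higher. In the raw signals before any normalization the groups overlapped for 14 of the 16 tested probes, and both exceptions were the Stat5a probes, which were lower on all producing arrays. No share over all tested probes is given on that scale, so this count has no background to be read against.

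The start regions of the genes that passed are shown because a STAT-binding sequence in a gene's own promoter is one known route of feedback in this pathway. Sequences are the RefSeq windows of the GRCm38.p6 assembly, from 250 bases before to 50 bases after an annotated transcription start, on the gene's strand from 5′ to 3′. Socs3 and Cish, feedback inhibitors of the pathway whose values follow below, are set beside them. Windows of Socs2 and Socs5 were also sought and are not shown, so the inhibitors shown are not a full set. Capitals mark matches to TTCNNNGAA, the STAT palindrome, searched on both strands.
Stat3 (chr11:100939491-100939790, minus strand): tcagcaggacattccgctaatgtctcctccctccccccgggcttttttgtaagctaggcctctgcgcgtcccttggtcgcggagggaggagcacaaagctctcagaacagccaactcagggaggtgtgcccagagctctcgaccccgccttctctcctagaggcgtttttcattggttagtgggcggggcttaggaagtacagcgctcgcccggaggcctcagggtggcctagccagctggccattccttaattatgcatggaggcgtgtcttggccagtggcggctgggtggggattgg
Stat4 (chr1:51986898-51987197, plus strand): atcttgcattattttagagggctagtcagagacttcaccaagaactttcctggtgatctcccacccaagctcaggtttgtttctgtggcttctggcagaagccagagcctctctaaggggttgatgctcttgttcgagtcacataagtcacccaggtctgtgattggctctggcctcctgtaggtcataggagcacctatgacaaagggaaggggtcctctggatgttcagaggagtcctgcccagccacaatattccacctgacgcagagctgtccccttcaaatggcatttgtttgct
Jak2 (chr19:29251553-29251852, plus strand): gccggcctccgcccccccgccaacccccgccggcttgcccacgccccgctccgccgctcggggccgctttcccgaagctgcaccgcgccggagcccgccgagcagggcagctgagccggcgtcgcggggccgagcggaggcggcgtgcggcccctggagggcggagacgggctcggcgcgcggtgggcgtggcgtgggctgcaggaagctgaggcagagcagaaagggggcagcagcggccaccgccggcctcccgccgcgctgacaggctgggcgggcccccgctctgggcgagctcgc
Socs3 (chr11:117969317-117969616, minus strand): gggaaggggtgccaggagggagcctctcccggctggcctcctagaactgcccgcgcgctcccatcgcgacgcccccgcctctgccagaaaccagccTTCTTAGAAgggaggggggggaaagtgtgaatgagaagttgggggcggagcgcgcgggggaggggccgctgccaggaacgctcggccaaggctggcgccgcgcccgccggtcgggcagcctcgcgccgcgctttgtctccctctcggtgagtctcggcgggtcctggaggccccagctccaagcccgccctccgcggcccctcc
Cish (chr9:107296409-107296708, plus strand): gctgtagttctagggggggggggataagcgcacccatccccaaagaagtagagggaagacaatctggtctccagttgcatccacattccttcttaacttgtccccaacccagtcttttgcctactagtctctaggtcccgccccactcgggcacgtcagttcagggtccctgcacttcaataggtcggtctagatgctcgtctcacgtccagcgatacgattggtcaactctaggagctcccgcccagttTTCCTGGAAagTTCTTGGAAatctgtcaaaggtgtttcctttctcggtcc

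All 9 genes matched the promoter table, with 12 windows between them, and 0 of the 12 held TTCNNNGAA, which 8.3% of 32851 mouse windows held. No match says only that these letters are not in these windows. The window of Socs3 held 1 match, beginning at -154 from the start, and that of Cish held 2, beginning at 1 and 12. The first match of Cish also had the tighter form TTCCNGGAA, a subset of the palindrome present in 1.15% of windows. The promoters differed in base composition, with 81% G and C for Jak2, 60.7% for Stat3 and 50.7% for the Stat4 window shown, against 53.8% over all windows. A match is a description of the letters, not evidence of binding.

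Of the 22 probes, 16 were tested, meaning that they were above background on at least 3 of the 6 arrays. Of these, 7 passed, all higher in the producing line, where 33.9% of all tested probes passed and 17% passed as higher. The normalized values of the groups did not overlap for these 7 probes and overlapped for the other 9. Among all tested probes 47.8% did not overlap.

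**Figure D1:**
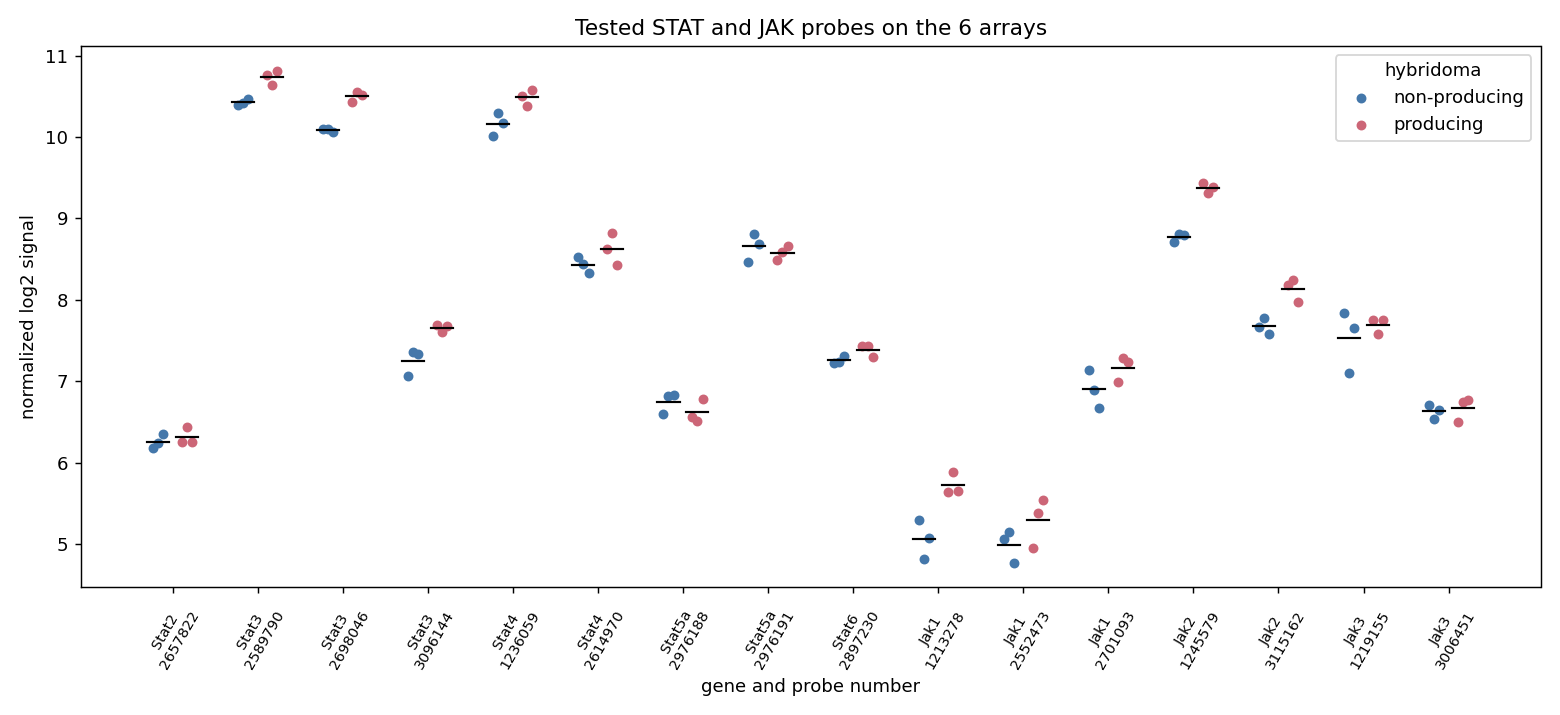
Normalized log2 signal of each tested STAT and JAK probe (y axis) on the 3 non-producing and 3 producing arrays, with gene and probe number on the x axis. Points are arrays and black lines group means; the 3 Stat3 probes, both Jak2 probes, 1 Stat4 probe and 1 Jak1 probe show no overlap between groups.

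Jak2 encodes the kinase that serves the receptors for interferon gamma, IL-12, IL-23, growth hormone and erythropoietin. Its brightest probe, ILMN_1245579, read 8.71, 8.81 and 8.80 on the non-producing and 9.44, 9.32 and 9.38 on the producing arrays. All producing arrays were above all non-producing ones. Producing exceeded non-producing by 0.61 ± 0.08 (SE, n = 3 per group; 95% interval 0.43 to 0.78; limma, Benjamini-Hochberg adjusted p = 0.000694). In raw signal the same probe read 558, 529 and 517 against 677, 662 and 551, so that 1 producing array lay below 1 non-producing array before normalization. The second tested probe, ILMN_3115162, read 7.66, 7.78 and 7.58 against 8.18, 8.24 and 7.98, again without overlap. It differed by 0.46 (adjusted p = 0.00817). Of the 4 Jak2 probes, ILMN_1254831 and ILMN_2748786 were above background on 0 of the 6 arrays, with detection p-values of 0.219 to 0.769. Both tested probes kept their calls whichever single array was left out (limma adjusted p 0.00243 to 0.00406 for the first and 0.0064 to 0.0334 for the second).

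Jak1, the kinase shared by the interferon, IL-2 family and IL-6 family receptors, gave probes that disagreed. The brightest, ILMN_2701093, read 7.14, 6.89 and 6.68 in the non-producing and 6.99, 7.28 and 7.23 in the producing line. The groups overlapped, and the difference of 0.26 (95% interval -0.04 to 0.57) did not pass (limma adjusted p = 0.162). ILMN_1213278 read 5.29, 4.82 and 5.07 against 5.64, 5.89 and 5.65 and did pass, with a difference of 0.67 (adjusted p = 0.00568). That probe lay close to background, detected on 2 of 3 non-producing and all 3 producing arrays. The third, ILMN_2552473, was detected on 2 arrays of each group and differed by 0.30 (adjusted p = 0.199). With the mean of the 3 probes as the gene's value, Jak1 was at 0.41 and passed (adjusted p = 0.0246).

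Jak3, the kinase bound to the common gamma chain of the receptors for IL-2 and its relatives, did not pass on either probe. ILMN_1219155 read 7.83, 7.10 and 7.66 in the non-producing and 7.75, 7.58 and 7.75 in the producing line. Its second non-producing array was low and the groups overlapped. The difference was 0.16 with a 95% interval of -0.24 to 0.56, and it was -0.05 without that array. ILMN_3006451 differed by 0.04 (-0.18 to 0.27).

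Stat3 passed on all 3 of its probes. ILMN_2589790, the brightest, read 10.40, 10.42 and 10.47 on the non-producing and 10.76, 10.64 and 10.82 on the producing arrays. Every producing array was above every non-producing one, with a difference of 0.31 ± 0.08 (SE, n = 3 per group; limma adjusted p = 0.0193). ILMN_2698046 read 10.10, 10.10 and 10.06 against 10.44, 10.56 and 10.51, a difference of 0.42 (adjusted p = 0.00359). ILMN_3096144 read 7.06, 7.36 and 7.33 against 7.69, 7.61 and 7.68, a difference of 0.41 (adjusted p = 0.0135). The 3 probes thus gave similar sizes. The brightest probe failed when DE3 array 2 (adjusted p = 0.0552) or S2 array 1 (0.0589) or 3 (0.0613) was omitted, while the other probes kept theirs under every such omission (0.00934 to 0.0424). In raw signal the groups overlapped for the brightest probe, with 1706, 1533 and 1535 in the non-producing against 1638, 1612 and 1436 in the producing line.

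Stat4, the transducer of IL-12 signals, passed on 1 of its 2 tested probes. ILMN_1236059 read 10.01, 10.29 and 10.17 in the non-producing and 10.51, 10.38 and 10.58 in the producing line, without overlap. They differed by 0.33 ± 0.10 (SE, n = 3 per group; limma adjusted p = 0.0329). ILMN_2614970 read 8.53, 8.44 and 8.32 against 8.62, 8.83 and 8.43. There the groups overlapped and the difference of 0.20 (95% interval -0.07 to 0.46) did not pass. The 2 remaining Stat4 probes were above background on 0 of the 6 arrays. This call failed when DE3 array 1 (0.26, limma adjusted p = 0.0826) or 3 (0.0763), or S2 array 1 (0.083) or 3 (0.0919), was omitted.

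Stat5a and Stat5b are near-identical factors that carry IL-2 and related signals, and their genes adjoin. ILMN_2976191, the brightest Stat5a probe, read 8.46, 8.81 and 8.69 against 8.49, 8.58 and 8.66 in the producing line, with overlap. Its difference was -0.08 (95% interval -0.32 to 0.16; limma adjusted p = 0.598). The other, ILMN_2976188, read 6.60, 6.82 and 6.84 against 6.56, 6.52 and 6.78 and differed by -0.13 (-0.37 to 0.11). Under scaling to a common median over all probes both were lower, by -0.37 (adjusted p = 0.0256) and -0.39 (adjusted p = 0.0147). The single Stat5b probe, ILMN_2746194, was above background on 0 of the 6 arrays, with detection p-values of 0.362 to 0.90, so no fold is given.

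Stat6, which answers IL-4, and Stat2, which joins IRF9 in the interferon response, did not pass. Stat6 probe ILMN_2897230 read 7.22, 7.24 and 7.31 against 7.43, 7.43 and 7.29 in the producing line, with 1 producing array inside the range of the other group. The difference was 0.13 (95% interval -0.05 to 0.31; limma adjusted p = 0.252), and the second Stat6 probe was above background on 1 of the 6 arrays. Stat2 read 6.18, 6.24 and 6.35 against 6.25, 6.44 and 6.25, a difference of 0.05 (-0.15 to 0.26; adjusted p = 0.676). The intervals of Stat2, Stat5a and Stat6, on their brightest probes, leave room for differences of up to 0.26, 0.16 and 0.31 upward. Downward they reach -0.15, -0.32 and -0.05.

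**Figure D2:**
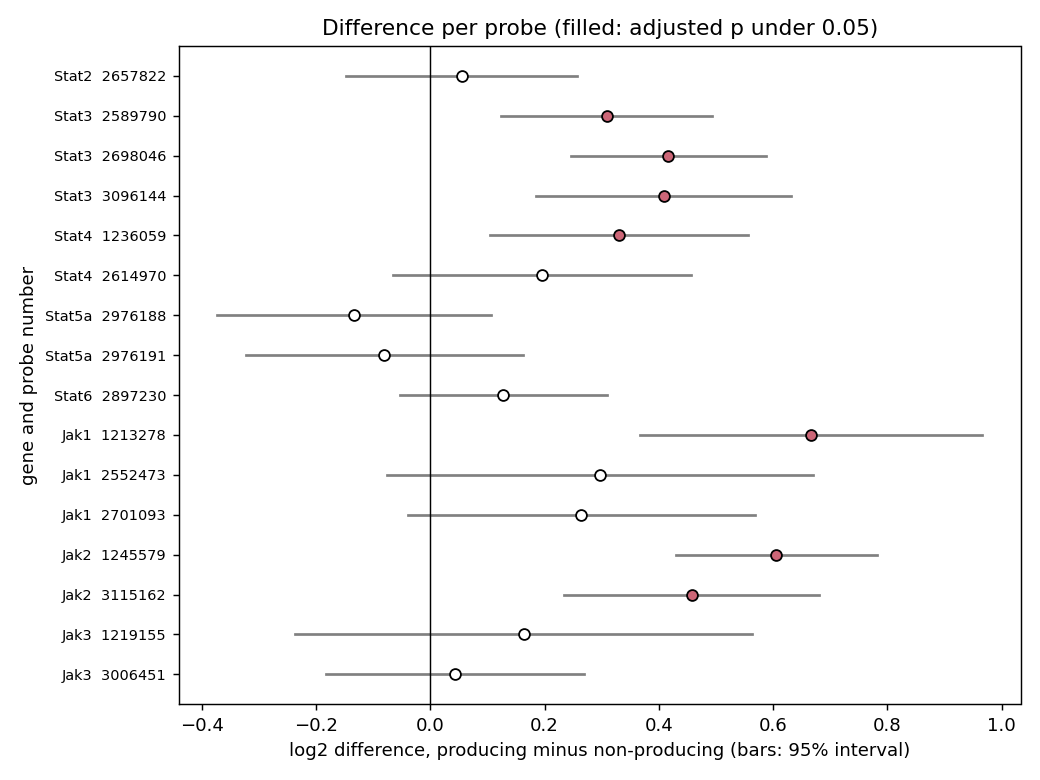
Log2 difference, producing minus non-producing (x axis), of each tested STAT and JAK probe (y axis), with 95% intervals from limma as bars. Filled points passed an adjusted p of 0.05: they are 3 Stat3 probes, 2 Jak2 probes, 1 Stat4 probe and 1 Jak1 probe, between 0.31 and 0.67.

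Genes of the chromosomes that carry Jak1 and Jak2 were higher as a whole in the producing line. On chromosome 19, which carries Jak2, 178 of 331 tested genes passed as higher and 21 as lower, with a median of 0.31. On chromosome 4, which carries Jak1, 274 of 582 were higher and 28 lower, with a median of 0.27. The medians of chromosomes 1 (Stat4), 8 (Jak3), 10 (Stat2 and Stat6) and 11 (Stat3, Stat5a and Stat5b) were -0.05, -0.01, 0.00 and -0.03. With each chromosome's median removed, Jak2 stood at 0.30 on its brightest probe (limma adjusted p = 0.0221) and at 0.15 on the other (adjusted p = 0.292). Jak1 stood at -0.01 on its brightest probe, and at 0.39 on ILMN_1213278, which no longer passed (adjusted p = 0.0552). Stat3 (0.33, adjusted p = 0.0164) and Stat4 (0.38, adjusted p = 0.0209) kept their calls.

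Neighbours in the gene order of GRCm38.p6 were read beside the genes that passed, up to 6 protein-coding genes on each side. Around Jak2, 6 of 10 tested neighbours were higher and 0 lower, with a median of 0.35. Over chromosome 19 as a whole, 178 of 331 tested genes were higher and 21 lower. Insl6, an insulin-family gene next to Jak2, was at 2.25 and Cd274, the gene of the checkpoint ligand PD-L1, at 0.69 (limma adjusted p = 9.54e-06 and 0.000376). Insl6 was above background on 2 of 3 non-producing arrays and all producing ones. Around Stat4 the neighbours went the other way, with 0 of 5 higher and 3 lower. Over chromosome 1 as a whole, 53 of 480 tested genes were higher and 116 lower. The 3 lower neighbours of Stat4 were Nab1, a corepressor of Egr factors (-1.51), Nabp1, a single-strand DNA binding protein (-0.69), and Mfsd6 (-0.67). Over chromosome 11, 102 of 817 tested genes were higher and 136 lower. Around the adjoining Stat5b, Stat5a and Stat3 genes, 1 of 7 tested neighbours was higher, Hsd17b1, a steroid dehydrogenase (0.90), and 2 were lower, among them Atp6v0a1, a proton pump subunit (-0.57). Stat3 therefore passed as higher beside Stat5a, which did not pass; the difference between these genes was not tested. With chromosome medians removed Cd274 stood at 0.38 (limma adjusted p = 0.00807), and 4 other neighbours of Jak2, named for that loss, no longer passed: Plgrkt (0.12), Plpp6 (0.07), Ric1 (0.22) and 4430402I18Rik (0.02). Without background correction Insl6 stood at 1.41 and Hsd17b1 at 0.54, both past the test. All neighbours named here were picked after their values were seen. Insl6, Cd274, Nab1, Nabp1, Mfsd6, Hsd17b1 and Atp6v0a1 kept their calls without any 1 array.

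**Figure D3:**
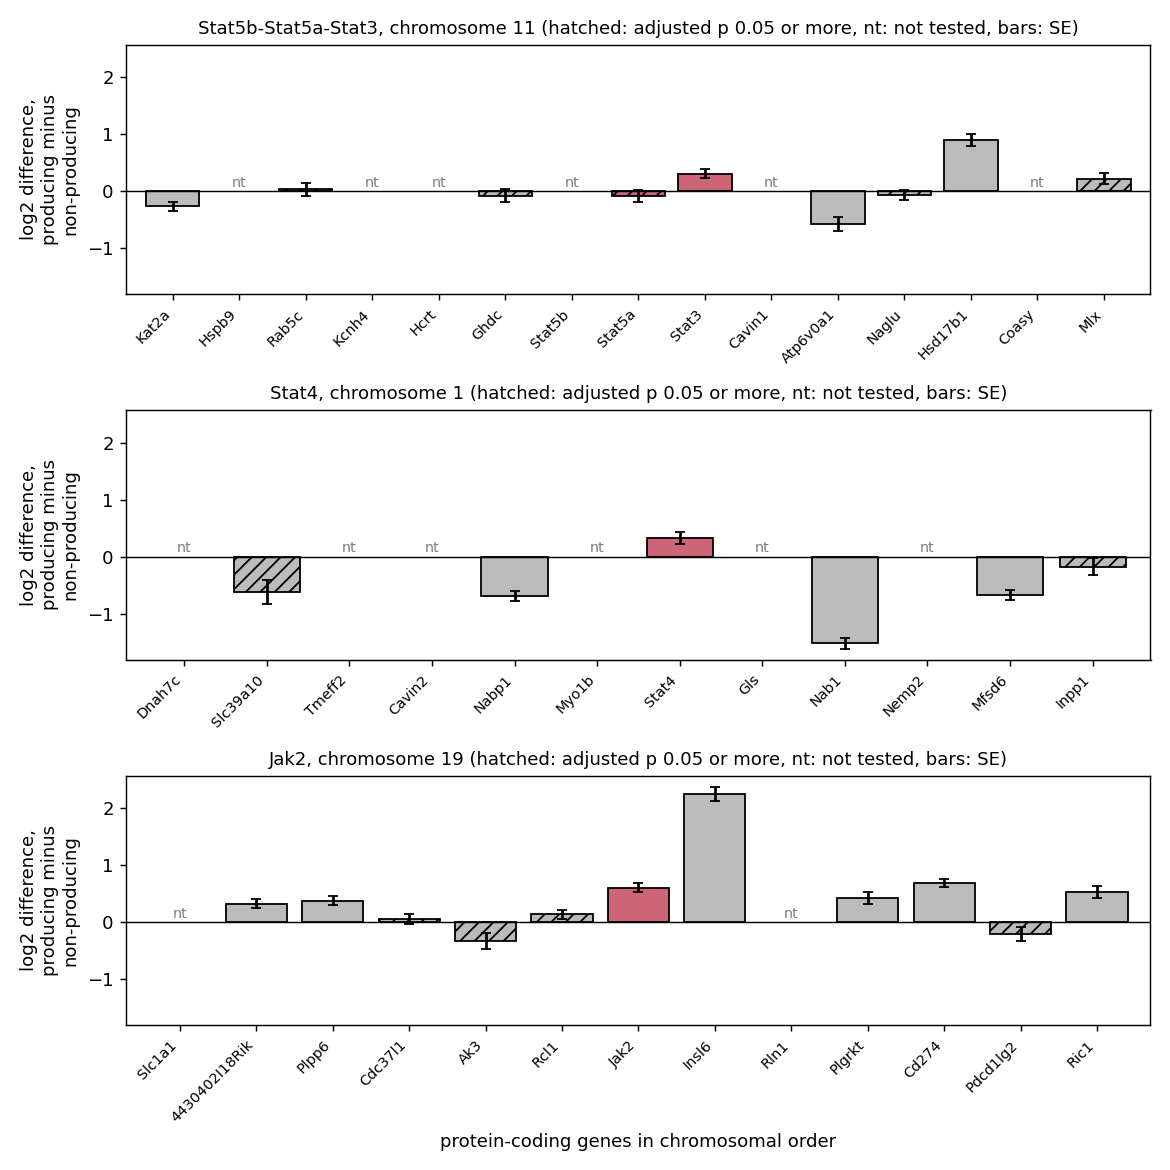
Log2 difference, producing minus non-producing (y axis, bars are standard errors), of Stat5b, Stat5a and Stat3, of Stat4 and of Jak2 (red) and of their neighbours (grey) in chromosomal order (x axis). Hatched bars did not pass and nt marks genes that were not tested. Of the tested neighbours, 6 of 10 of Jak2 were higher and 3 of 5 of Stat4 lower. Over all tested genes of the chromosome, 178 of 331 were higher on chromosome 19 and 116 of 480 lower on chromosome 1.

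Profiles most like those of the genes that passed were sought over the 6 arrays among 9394 other tested genes. The highest Pearson correlations with Jak2 were those of Fam78a, Nme3 and Elovl1 (0.999, 0.998 and 0.998), with Stat3 those of Virma, Ccdc124 and Abcf3 (0.999, 0.995 and 0.995), and with Stat4 those of Ergic3, Plgrkt and Snhg12 (0.998, 0.996 and 0.996). All of these correlations share the 6 arrays and include the difference between the lines.

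Other genes of the pathway were read from 6 lists. Their union held 118 genes, of which 73 were tested, 19 were higher, 12 lower and 42 did not pass. That is 42.5% of those tested, against 36.7% of all tested genes. Under scaling to a common median over all probes the split was 5 higher and 27 lower, so directions below are those under quantile normalization unless stated. The lists share genes, such as Socs3, which is in 3 of them.

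Among 14 tested cytokine receptor chains that signal through Janus kinases, 5 rose, 1 fell and 8 missed the threshold; the list median was 0.08. That is 42.9% called, against 36.7% of all tested genes. Under scaling over all probes 1 was higher and 2 lower. Ifngr1, the ligand-binding chain of the interferon gamma receptor, rose by 0.63 (limma adjusted p = 0.00495), with 7.69, 8.02 and 7.82 in the non-producing against 8.50, 8.28 and 8.63 in the producing line. Il9r (0.43), the interferon receptor chain Ifnar2 (0.39), the IL-12 and IL-23 receptor chain Il12rb1 (0.36) and the IL-6 receptor Il6ra (0.33) rose by less. Il9r was above background on 2 of 3 non-producing arrays and all producing ones. The other tested probe of Il12rb1 was at 0.18 and did not pass. Csf2ra, the GM-CSF receptor chain, fell by 0.79 and was above background on 1 of 3 producing arrays. Il9r, Ifnar2 and Il6ra kept their calls only while certain arrays were in. For Il9r these were DE3 arrays 1 and 2 and S2 array 3 (limma adjusted p 0.063 to 0.0813 when 1 was omitted). For Ifnar2 they were DE3 arrays 2 and 3 and S2 arrays 1 and 3 (0.0561 to 0.0699), and for Il6ra DE3 arrays 2 and 3 and S2 arrays 2 and 3 (0.054 to 0.0911). Ifnar2 also lost its call with chromosome medians removed (0.15, limma adjusted p = 0.322), and Il6ra on the mean of its tested probes (0.25, adjusted p = 0.0542), its second probe being at 0.17. Without background correction Csf2ra stood at -0.40, Il9r at 0.21 and Il6ra at 0.19, all still past the test. The brightest Ghr probe, of the growth hormone receptor, was at 0.02 while its other tested probe was at -1.07 and passed.

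Of 20 tested inhibitors and phosphatases of the pathway, 1 rose, 7 fell and 12 missed the threshold; the list median was -0.23. The share that fell, 7 of 20, stood beside 18.6% of all tested genes. Under scaling over all probes 0 rose and 14 fell. The falls were largest for the suppressors of cytokine signalling, SH2 proteins that block Janus kinases or receptors. Some of them, not all, are known to be induced by the signals they dampen. Socs5 read 7.05, 6.69 and 6.84 in the non-producing against 5.52, 5.55 and 5.31 in the producing line, a fall by 1.40 on the log2 scale. Socs2, an inhibitor of growth hormone and STAT5 signals, read 6.99, 6.86 and 6.71 against 5.26, 5.68 and 5.47 and fell by 1.38. Socs3, which blocks gp130 receptors and JAK2, read 7.11, 7.13 and 6.97 against 5.74, 5.81 and 5.62 and fell by 1.35 (limma adjusted p = 1.96e-05). For none of these 3 genes did the lines overlap, which was also so for 47.8% of all tested probes. The size of the falls depended on the background correction: without it they were -0.85 for Socs5, -0.84 for Socs2 and -0.87 for Socs3, and on the authors' processed values -0.86, -0.85 and -0.87, all past the test.

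Cish, a STAT5 target that inhibits IL-2 family signals, read 5.77, 5.32 and 5.67 in the non-producing and 4.92, 5.27 and 4.56 in the producing line. It fell by 0.67 (limma adjusted p = 0.0237) and was above background on 1 of 3 producing arrays. Usp18, an interferon-induced brake on the type I interferon receptor, fell by 0.41, while its second tested probe was at -0.23 and did not pass. Ptpn1, a phosphatase of JAK2, rose by 0.43. The other 2 that fell, named after their values were seen, were Socs7 (-0.41) and Socs4 (-0.27). On its brightest probe Socs7 was above background on 1 of 3 producing arrays. The fall of Socs4 rested on 1 of its 2 tested probes. The other was at 0.11, their mean was at -0.08 (limma adjusted p = 0.459), and with chromosome medians removed Socs4 was at -0.16 (adjusted p = 0.223). Without background correction Cish stood at -0.35 and Socs7 at -0.20, both past the test. Omitting DE3 array 1 or 3, or S2 array 1 or 3, ended the call of Cish (limma adjusted p 0.054 to 0.0734). Omitting DE3 array 1, or S2 array 1 or 3, ended that of Socs7 (0.0502 to 0.0553). Socs4 passed with DE3 array 1 left out and failed when any of the other 5 was (0.062 to 0.137). Socs1 was at 0.24 and did not pass (adjusted p = 0.125).

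**Figure D4:**
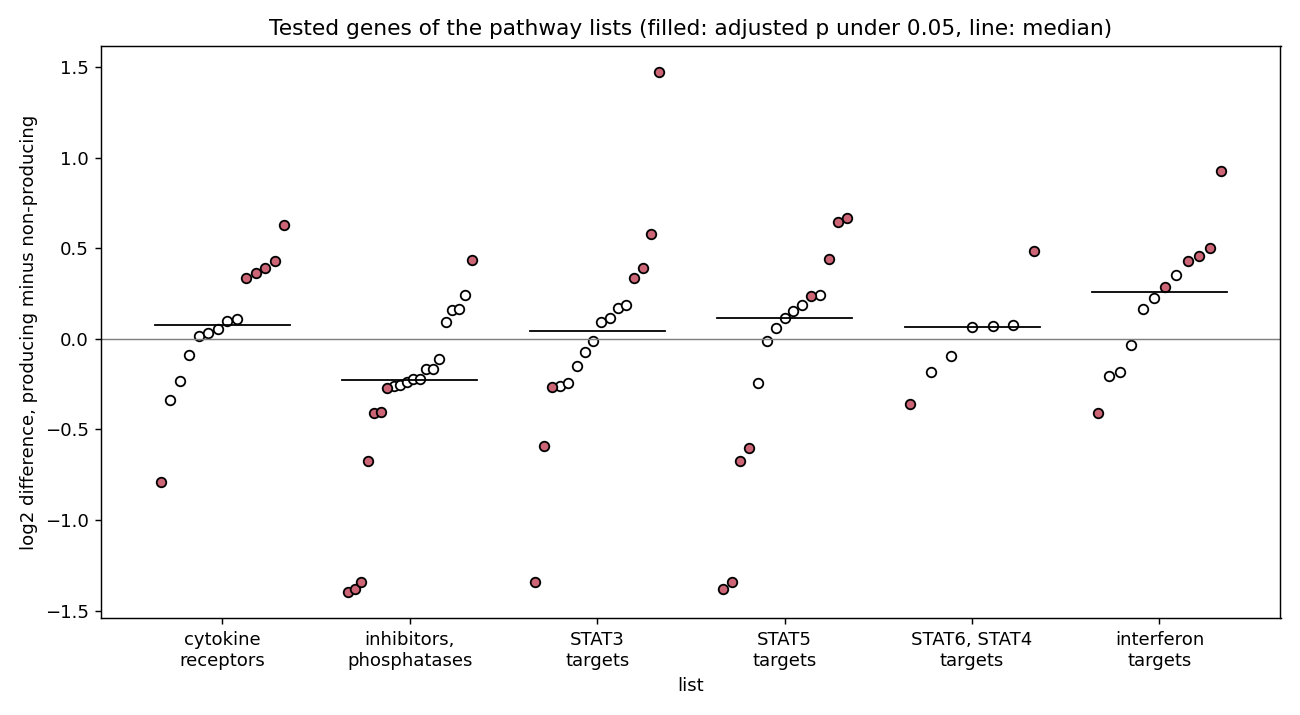
Log2 difference, producing minus non-producing (y axis), of each tested gene of the 6 pathway lists (x axis), sorted within each list, with the list median as a line. Filled points passed an adjusted p of 0.05; the 3 lowest points among the inhibitors are Socs5, Socs2 and Socs3, between -1.40 and -1.35.

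Genes known as STAT3 targets went both ways. Of 16 tested, 4 rose, 3 fell and 9 missed the threshold, around a median of 0.04 (1 higher and 6 lower under scaling over all probes). That is 43.8% called, against 36.7% of all tested genes. Vegfa, the vascular growth factor, was above background on all producing and 0 of 3 non-producing arrays and was at least 2.32-fold higher (limma adjusted p = 2.62e-05). Its measured log2 difference was 1.47, and 0.79 without background correction. The cyclin gene Ccnd1 rose by 0.58, with all 3 probes past the test, and the survival gene Mcl1 by 0.39. Socs3 fell, as did the NF-κB cofactor Bcl3, which S2 arrays did not show above background (a drop of at least 1.29-fold). Il6ra (0.33) was named above. Il17a, Il17f and Il23r were above background on 0 of the 6 arrays, so the IL-17 label was not checked by these transcripts.

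Of 15 tested STAT5 targets, 4 rose, 4 fell and 7 missed the threshold, around a median of 0.11 (2 higher and 5 lower under scaling over all probes). That is 53.3% called, against 36.7% of all tested genes. The D-type cyclins moved apart. Ccnd3 rose by 0.67 (11.51, 11.41 and 11.33 in the non-producing against 12.15, 12.09 and 12.01 in the producing line) and Ccnd2 fell by 0.61 (11.57, 11.40 and 11.45 against 10.75, 11.14 and 10.72). All 3 tested Ccnd2 probes and both tested Ccnd3 probes passed. The groups did not overlap for either brightest probe, nor for 47.8% of all tested probes. Tnfrsf4, the costimulatory receptor OX40, rose by 0.65. With chromosome medians removed Ccnd3 stood at 0.36 and Tnfrsf4 at 0.37, and without background correction Tnfrsf4 stood at 0.34, all still past the test. Socs2, Socs3 and Cish fell, as given above. Bcl2, a survival gene in both target lists, was at -0.25 and did not pass on its brightest probe, while 3 of its other 4 tested probes passed as lower.

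Of 7 tested STAT6 and STAT4 targets, Furin, a proprotein convertase, rose by 0.48, the chemokine receptor gene Ccr8 fell by 0.36 and 5 did not pass (28.6% called, against 36.7% of all tested genes; median 0.06; 0 higher and 2 lower under scaling over all probes). Ccr8 failed when DE3 array 2 or 3 or S2 array 2 was omitted (limma adjusted p 0.0605 to 0.076). Ifng, Il4 and Tbx21, among the best-known targets of these factors, could not be tested.

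Of 12 tested interferon targets of STAT2 with IRF9, 5 rose, 1 fell and 6 missed the threshold, around a median of 0.26 (1 higher and 4 lower under scaling over all probes). That is 50% called, against 36.7% of all tested genes; 18.1% of all tested genes were higher. Bst2, the virion tether called tetherin, rose by 0.93 (limma adjusted p = 0.000488), with 8.78, 8.89 and 9.19 in the non-producing against 9.91, 9.85 and 9.89 in the producing line. Of this list, Bst2 was the gene still higher under scaling over all probes (0.64). Dtx3l, a ubiquitin ligase, rose by 0.50, Oas1g, an oligoadenylate synthetase, by 0.46, and Eif2ak2, the kinase PKR, by 0.43. The other tested probe of Dtx3l was at 0.25 and did not pass. With chromosome medians removed Eif2ak2 lost its call (0.12, limma adjusted p = 0.236) and Dtx3l stood at 0.26 (adjusted p = 0.0483). Without background correction Oas1g stood at 0.26 and passed. Usp18 fell, and Trim25, a ubiquitin ligase of RNA sensing, was at 0.28. Oas1g lost its call without producing array 1 (adjusted p = 0.0572) and Trim25 when any array but DE3 array 1 was omitted (0.0694 to 0.118). Irf9, the partner of STAT2, was at 0.17 and did not pass (adjusted p = 0.208).

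**Figure D5:**
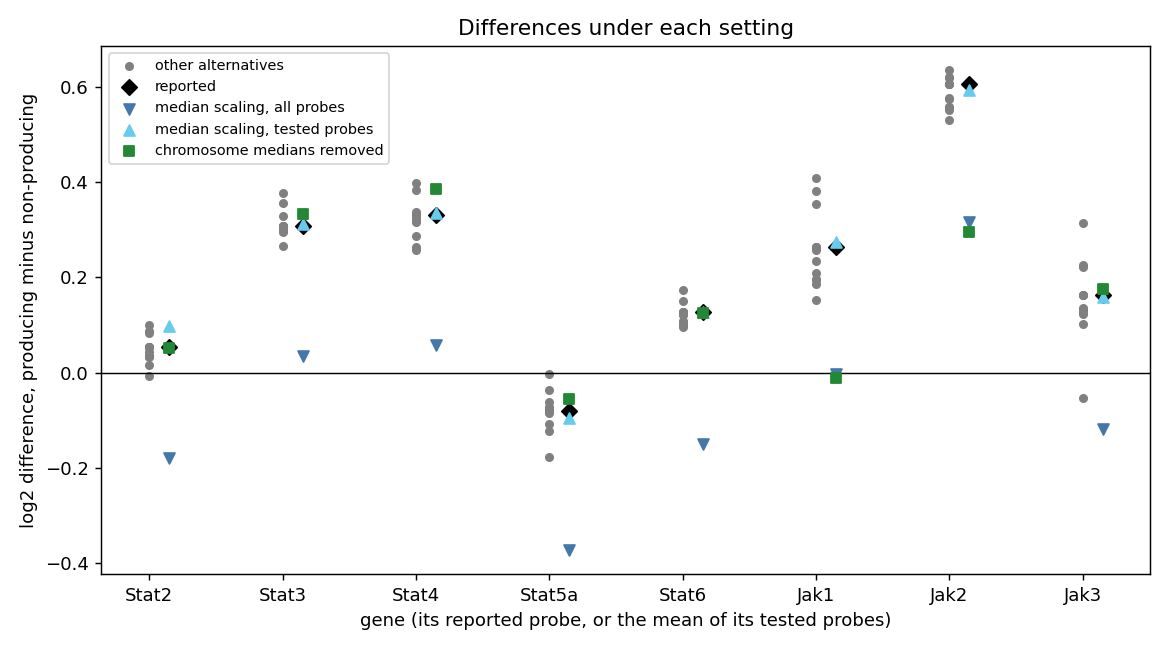
Log2 difference, producing minus non-producing (y axis), of each tested STAT and JAK gene (x axis) as reported (diamonds) and under each alternative processing. Scaling over all probes (downward triangles) lowered every gene, Stat3 to 0.04 and Jak2 to 0.32, and removing chromosome medians (squares) took Jak1 to -0.01 and Jak2 to 0.30.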

How the data were processed

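Signals came from 6 Illumina bead arrays of mouse hybridoma RNA, labelled with an Ambion kit, per the labels' protocols. The authors deposited a table of linear bead intensity, without normalization per the file headers, and with no value near 0, so it was read as not background-subtracted. Beside it stands a deposited detection score from 0 to 1, called a p-value in the header. It rises with signal, so a detection p-value was taken as its complement to 1. A second deposited table holds intensity that is quantile normalized, judged from its columns, whose median is 66.7.

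Background correction with inferred negative controls, an offset of 16, quantile normalization and log2 were done with limma 3.58.1 (neqc) in R 4.3.3. Testing covered the 17445 probes with a detection p-value below 0.05 on 3 or more of the 6 arrays. The lines were compared by lmFit and eBayes, two-sided, with Benjamini-Hochberg over all tested probes and a threshold of 0.05. Each gene took the value of its brightest tested probe. The procedure was tested on simulated data with independent noise and a smaller share of changed probes than passed here. That test does not measure the accuracy of the calls above. Gene names came from the platform annotation, updated through a RefSeq table of GRCm38.p6 (34885 probes with 1 symbol, 18 with several, 10378 not listed). A fold is a lower bound where a gene was above background on 0 arrays of a group, whose arrays were raised to their lowest detected signal.

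The 9 genes, the 6 pathway lists and the 3 marker lists were chosen with earlier results of these data known. Named were all probes of the 9 genes, the largest called differences of each list, 6 at most, and the 3 genes best correlated with each of the 9 that passed. Alternatives covered background correction, scaling, filter, probe summary, chromosome medians, the replicate block, the authors' processed values and leaving out each array. The number of arrays limits the precision.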

Additional observations from a re-analysis of the deposited data

How the results depend on the processing

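The counts of STAT and JAK genes past the threshold (3, all higher) and of probes (7) were compared across the alternatives run. They stayed within 1.5 times the reported value except under scaling to a common median over all probes and without single arrays. That scaling gave 1 gene, Stat5a, which was lower, and 3 probes, 1 higher and 2 lower. The higher probe was Jak1 ILMN_1213278 (0.52, limma adjusted p = 0.0146), which lay close to background. Leaving out single arrays gave 1 to 3 genes and 5 to 7 probes. The pathway count of 31 ranged from 23 to 27 without 1 array and was 25 without a filter. Under scaling over all probes Stat2 reversed to -0.18, Stat6 to -0.15, Jak1 to -0.0027, Jak3 to -0.12 and Trim25 to -7.83e-05. Jak1 reversed to -0.00997 with chromosome medians removed. Leaving out single arrays gave -0.0068 to 0.10 for Stat2 and -0.0525 to 0.31 for Jak3, genes that passed under no setting. Jak2 lost its call under scaling over all probes alone (0.32, limma adjusted p = 0.0518). Its values lay between 0.30 and 0.64 over 16 alternatives. Stat4 also lost its call without a filter (adjusted p = 0.0607). Without a filter Cish, Ifnar2, Il9r, Oas1g, Trim25 and Socs4 no longer passed (adjusted p 0.0503 to 0.0805). Without background correction several genes differed by less than reported by over 1.5 times, as given beside them. With the replicate number as a block, 2 genes, 6 probes and 25 pathway genes passed, and Stat4 did not (adjusted p = 0.0619), nor did Il6ra, Ccr8, Socs4 and Trim25 (0.0534 to 0.0952). Same-numbered arrays of the 2 lines had deviations correlated at -0.04, -0.16 and 0.09, and 0 of 3 producing arrays correlated best with its own number, so the numbers were not taken as pairs. Why the values moved with the scaling was not tested beyond the shift of the median given above. Stat5b and the 2 dim Stat4 and Jak2 probes lay at background, which limits what they can show.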

Other observations

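Among neighbours of the STAT and JAK genes that did not pass, calls varied by locus, beside 36.7% of all tested genes. Around Jak3, 0 of 5 tested neighbours passed, and around Stat2, 1 of 6 did. Of the 5 tested neighbours of Jak1, 2 were higher and 0 lower, with a median of 0.09 against 0.27 for chromosome 4. Of the 3 tested neighbours of Stat6, 1 was higher and 1 lower.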
